A study of Mus musculus with 6 samples.

Results

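The 79 genes described here encode the proteins of the cytosolic ribosome of the mouse. They were taken by symbol from the 42365 gene rows of the table: every Rpl or Rps gene written with a number and at most a short suffix, together with Rplp0, Rplp1, Rplp2 and Rpsa. Of these, 46 encode proteins of the large subunit and 33 of the small subunit, and the choice used no measured value. Rps3a2 and Rps3a3, which fit the symbol rule, are annotated as processed pseudogenes, and the remaining 77 as protein-coding genes. The fusion gene Fau, which carries a ribosomal protein behind a ubiquitin-like part, lies outside the symbol rule and is given beside it.

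RNA was sequenced from cultured mouse neural progenitor cells (NPC), which can give rise to neurons and glia. KO clone 1 and KO clone 2 are lines labelled knockout, each grown from 1 clone and each with 2 libraries. Parental cells are labelled wild type and also have 2 libraries, whose titles number them as clones 1 and 2. No other allele, treatment or time point is named, and the groups share the cell type and the RNA extraction. The counts do not establish the labelled genotype: mRNA of the targeted gene was present in all 4 labelled knockout libraries and was not called lower in either clone, and the labels do not say which part of the gene was altered. Each direction below is therefore that of the libraries as labelled. The labels do not say whether each clone's 2 libraries were grown apart. In contrasts of single clones the p-values therefore measure the spread between libraries alone, and that spread may be technical. In the contrast of labelled knockout with parental cells each clone's libraries were added. Its p-values measure the spread between the 2 clones and between the 2 parental libraries. Nor do they say which library was made with which of the 2 named kits, 1 for ultra-low input and 1 TruSeq kit.

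A ribosome is built from a large subunit, which joins amino acids, and a small subunit, which reads the messenger RNA. Each subunit combines ribosomal RNA with a set of proteins that are mostly needed in equal numbers, and cells make them in proportion to growth. The mRNAs of these proteins begin with a run of pyrimidines, the 5′ terminal oligopyrimidine (TOP) motif, through which the protein Larp1 and the kinase mTOR adjust their translation and stability. Neural progenitors that divide make many ribosomes, and production falls when they leave the cycle.

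The libraries held 58871554 to 69530032 counts, and mitochondrial genes are part of these totals. All 12 genes on a list of cell division genes rose in the labelled knockout clones, and their median was 5.60 on the log2 scale. Top2a, a topoisomerase of dividing cells, had 252 and 255 CPM in KO clone 1, 199.9 and 195 CPM in KO clone 2, and 4.81 and 5.10 CPM in parental cells. Of 7 astrocyte markers 1 rose and 3 fell, and their summed level was 2694 to 2712 CPM in KO clone 1, 3653 to 3684 CPM in KO clone 2 and 6798 to 6831 CPM in parental cells. Of 6 neural progenitor markers 2 rose and 1 fell, with sums of 2474 to 2488, 3062 to 3074 and 2887 to 2897 CPM in the same order. Of 6 oligodendrocyte lineage markers 1 rose and 2 fell, with sums of 1745 to 1827, 1770 to 1801 and 482 to 493 CPM. Of 6 neuron markers 2 fell, and their sums were 1349 to 1502, 1038 to 1061 and 1056 to 1063 CPM. The median log2 fold change was -0.44 over the oligodendrocyte lineage markers and -2.07 over the neuron markers. A sum follows the most abundant markers of a list, so it can differ from the median. Each of the 5 microglia markers stayed under 1 CPM in every library. These values move with the groups, and their part in the results on ribosomal protein genes was not tested. In libraries from bulk cultures, a change in the number of cells that express a gene and a change in its RNA per cell cannot be told apart.

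Ribosomal protein mRNAs were higher in the labelled knockout clones than in parental cells. With the 2 libraries of each clone added, so that the 2 clones and 2 parental libraries were the samples, 48 of the 79 genes rose, 24 of the large and 24 of the small subunit, at a Benjamini-Hochberg adjusted p under 0.05 in edgeR's quasi-likelihood test. None fell by that test, also at an unadjusted p under 0.05, by DESeq2 or by limma-voom. Among all 24506 genes tested 13.0% were called higher and 13.6% lower. The median log2 fold change of the 79 genes was 0.47, with 0.43 over the large and 0.53 over the small subunit, against 0.03 over all genes tested. The sign was positive in 76 of the 79, and in 74 under upper quartile scaling. Changes were moderate: the called genes ran from 0.32 to 0.96 on the log2 scale, and no gene reached 1 on that scale. Each of the 4 labelled knockout libraries lay above both parental libraries for 58 genes, against 27.1% of all genes tested, and all lay below for 1, Rpl41, against 29.6%. With a further demand of at least 0.5 on the log2 scale, 31 of the 79 genes were called higher, against 11.5% of all genes tested, and 0 lower, against 12.5%. The count of calls rested on having both parental libraries. With either parental replicate left out, nearly all of the calls were lost. The 79 genes were then called less often than all genes tested. Their median was 0.50 without parental replicate 1 and 0.46 without parental replicate 2. Without replicate 2 of KO clone 1, 21 genes were called, all higher, and the median was 0.39. In that fit 2500 of all 22910 genes tested were called higher, and 5379 in either direction.

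**Figure D1:**
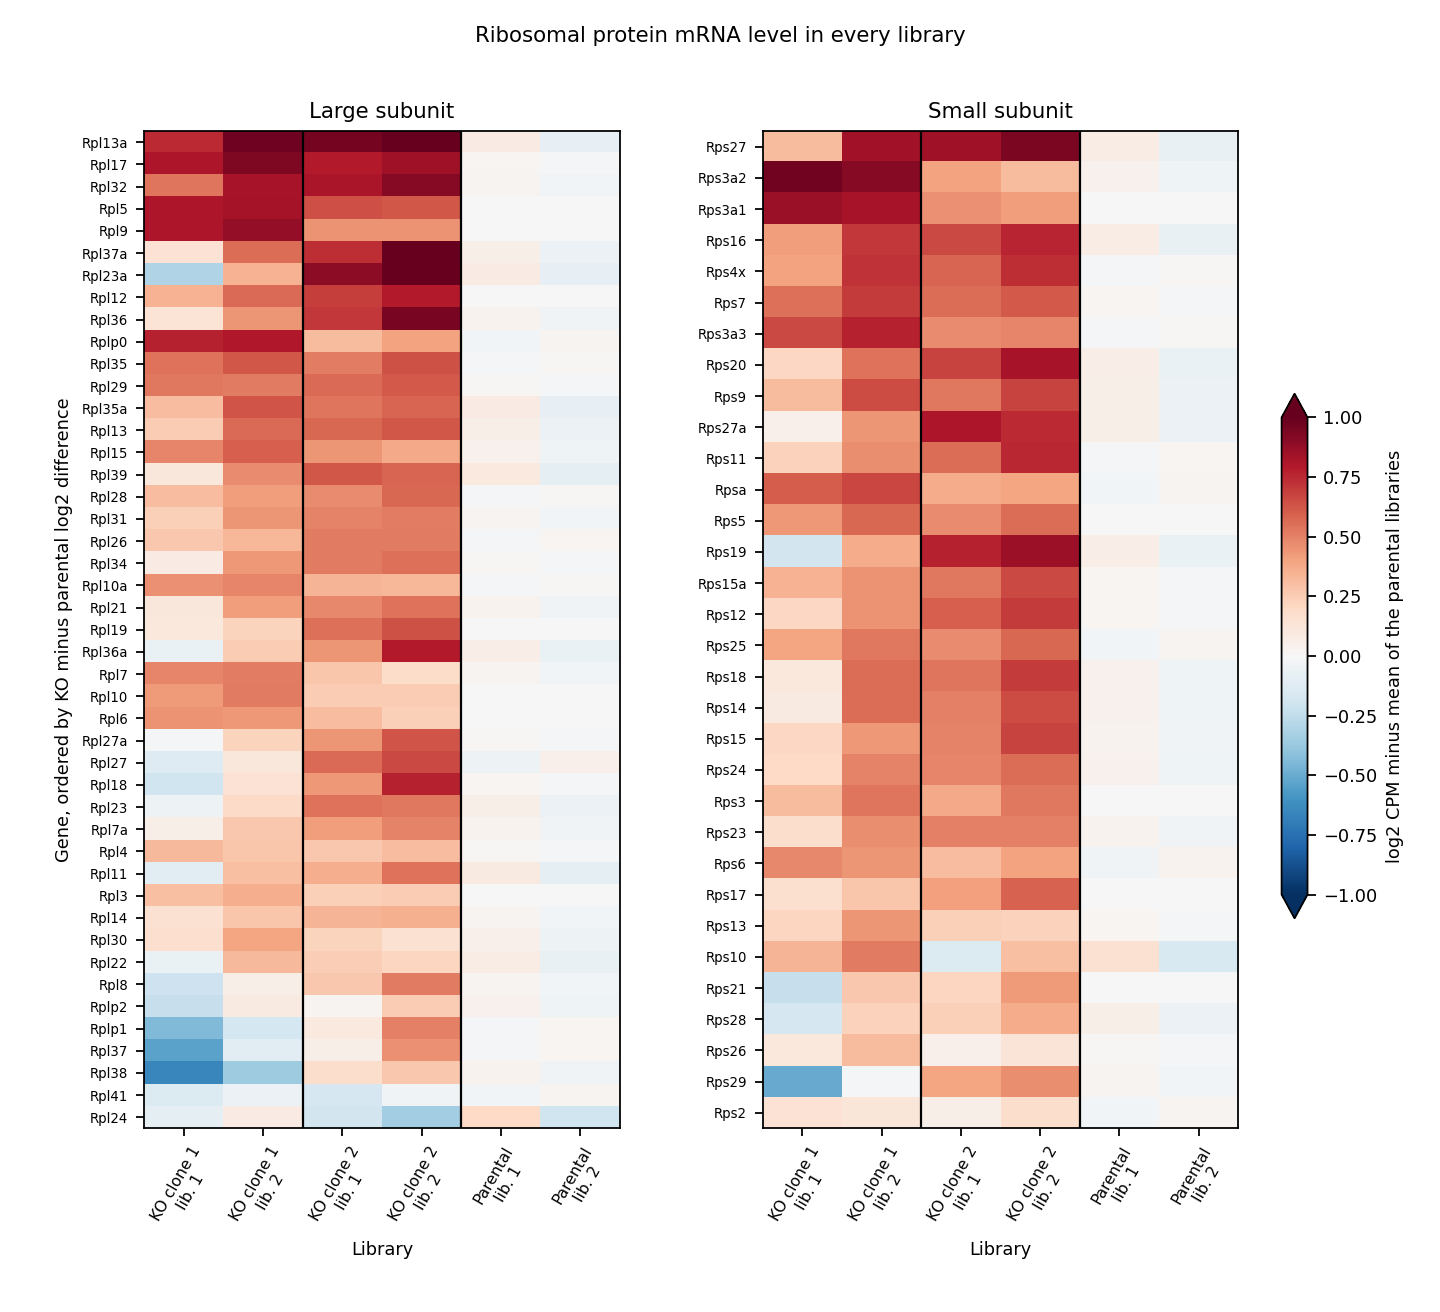
Level of each ribosomal protein mRNA in the 6 libraries, as log2 CPM minus the mean of the parental libraries, with genes of the large subunit at left and of the small subunit at right, ordered by the difference between labelled knockout and parental cells. Most rows are red in all 4 labelled knockout libraries, the first library of KO clone 1 is paler than the second, and a few large subunit rows at the foot are blue in KO clone 1.

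The starts of these genes show how far the TOP motif is visible in the annotation. Windows of 30 bases around the annotated start, 15 before it and 15 from it on, were read from RefSeq promoters of the build GRCm38.p6, in which 57 of the 79 genes had a start. Capitals mark a run of at least 5 pyrimidines (C or T) that begins within 5 bases of the start or covers it, and runs elsewhere in the window were not counted. The first 4 windows belong to genes that rose and hold such a run, the next 3 to genes that did not pass the test although they hold one, and the last 2 to genes that rose without one.
Rpl13a (chr7:45128731-45128760, minus strand): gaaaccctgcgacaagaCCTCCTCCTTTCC
Rps27 (chr3:90213634-90213663, minus strand): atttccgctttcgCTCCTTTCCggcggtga
Rpl12 (chr2:32961697-32961726, plus strand): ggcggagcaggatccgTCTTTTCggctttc
Rps6 (chr4:86857353-86857382, minus strand): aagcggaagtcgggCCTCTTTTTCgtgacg
Rplp2 (chr7:141447636-141447665, plus strand): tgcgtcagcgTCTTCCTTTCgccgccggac
Rpl38 (chr11:114668565-114668594, plus strand): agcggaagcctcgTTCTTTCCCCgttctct
Rps26 (chr10:128626492-128626521, minus strand): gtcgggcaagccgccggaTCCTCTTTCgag
Rpl5 (chr5:107900513-107900542, plus strand): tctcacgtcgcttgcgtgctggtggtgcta
Rps4x (chrX:102189377-102189406, minus strand): ctgaggctgggcggagcaacccaggctcca
Such a run was present in 26 of the 57 windows, or 45.6%, and in 23.8% of the 13151 tested genes with a start. Among the genes with a run 14 of 26 rose and the median was 0.45 on the log2 scale, and among those without one 21 of 31 rose and the median was 0.47. Where a gene had several RefSeq starts, only the one farthest upstream was read. An annotated start can lie some bases, or much farther, from the one in use in these cells. A missing run therefore says only that no such run stood at the start that was read. In the wider stretch from 250 bases before to 50 bases after the start, CCGGAAG, the letters bound by ETS family factors, stood on either strand in 40.4% of the 57 genes and 15.3% of all. TATAA was found in 28.1% and 15.03%, AAGATGGC, the letters of Yy1, in 8.77% and 4.04%, and GGGCGG in 59.6% and 58.9%. CCAAT stood in 31.6% and 38.5%, and the E-box CACGTG, which Myc binds, in 8.77% and 9.30%. The genes with CCGGAAG rose in 11 of 23 cases, at a median of 0.43, and those without it in 24 of 34, at a median of 0.48.

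In the large subunit the strongest called changes included those of Rpl13a, Rpl17, Rpl32, Rpl5 and Rpl9. Rpl17, a protein at the mouth of the peptide exit tunnel, had 329.8 and 359 CPM in KO clone 1, 326 and 339 CPM in KO clone 2, and 190.2 and 186 CPM in parental cells. The 4 labelled knockout libraries lay close together, well above both parental ones, and the log2 fold change was 0.88 ± 0.08 SE, adjusted p = 0.00184, or 1.84-fold. Rpl32 had 129.6 and 158 CPM in KO clone 1, 158 and 168 CPM in KO clone 2, and 91.5 and 87.7 CPM in parental cells, which made 0.81 ± 0.10 SE, adjusted p = 0.00485. Rpl5, which carries the 5S ribosomal RNA into the large subunit together with Rpl11, had 569 and 579 CPM in KO clone 1, 508 and 501 CPM in KO clone 2, and 327 and 324 CPM in parental cells. Its libraries did not overlap between the groups, and the log2 fold change was 0.76 ± 0.10 SE, adjusted p = 0.00504. Rpl9, part of the base of the stalk region, had 410.1 and 429.8 CPM in KO clone 1, 319.7 and 319 CPM in KO clone 2, and 234 and 233 CPM in parental cells, with 0.69 ± 0.14 SE, adjusted p = 0.0215. In Rpl5 and Rpl9 both libraries of KO clone 1 were above both of KO clone 2, which were in turn above both parental libraries. Rpl13a, which in human cells also leaves the ribosome to restrain inflammatory mRNAs, gave the greatest log2 value, 0.96 ± 0.15 SE, adjusted p = 0.00871, but from a low level of 11.1 to 13.5 CPM in the clones and 6.98 and 6.25 CPM in parental cells.

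In the small subunit the strongest called changes included those of Rps27, Rps3a2, Rps3a1, Rps16 and Rps4x. Rps27, a zinc finger protein near the platform of the subunit, had 84.2 and 121 CPM in KO clone 1, 122 and 130.4 CPM in KO clone 2, and 71.2 and 64.5 CPM in parental cells, and its log2 fold change was 0.79 ± 0.13 SE, adjusted p = 0.012. Its lowest labelled knockout value, in the first library of KO clone 1, was still above both parental values. Rps3a1, which lies near the exit of the mRNA channel, had 635 and 619 CPM in KO clone 1, 477 and 467 CPM in KO clone 2, and 349 and 349 CPM in parental cells, with 0.69 ± 0.15 SE, adjusted p = 0.024. The annotated pseudogene Rps3a2 had 239 and 229 CPM in KO clone 1, 162 and 152 CPM in KO clone 2, and 126 and 119 CPM in parental cells, with 0.71 ± 0.19 SE, adjusted p = 0.0479, and Rps3a3 had a log2 fold change of 0.63 ± 0.11 SE, adjusted p = 0.0118. Reads of these 3 near-identical rows may be divided between them, so their separate values are uncertain. Rps16, whose tail reaches the transfer RNA on the ribosome, had 199.8 and 245 CPM in KO clone 1, 236 and 254 CPM in KO clone 2, and 158 and 142 CPM in parental cells, with 0.67 ± 0.10 SE, adjusted p = 0.00947. Rps4x, an X-linked gene with a Y-linked partner in human, had 241 and 302 CPM in KO clone 1, 273 and 305 CPM in KO clone 2, and 181 and 184 CPM in parental cells, with 0.65 ± 0.09 SE, adjusted p = 0.00577.

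**Figure D2:**
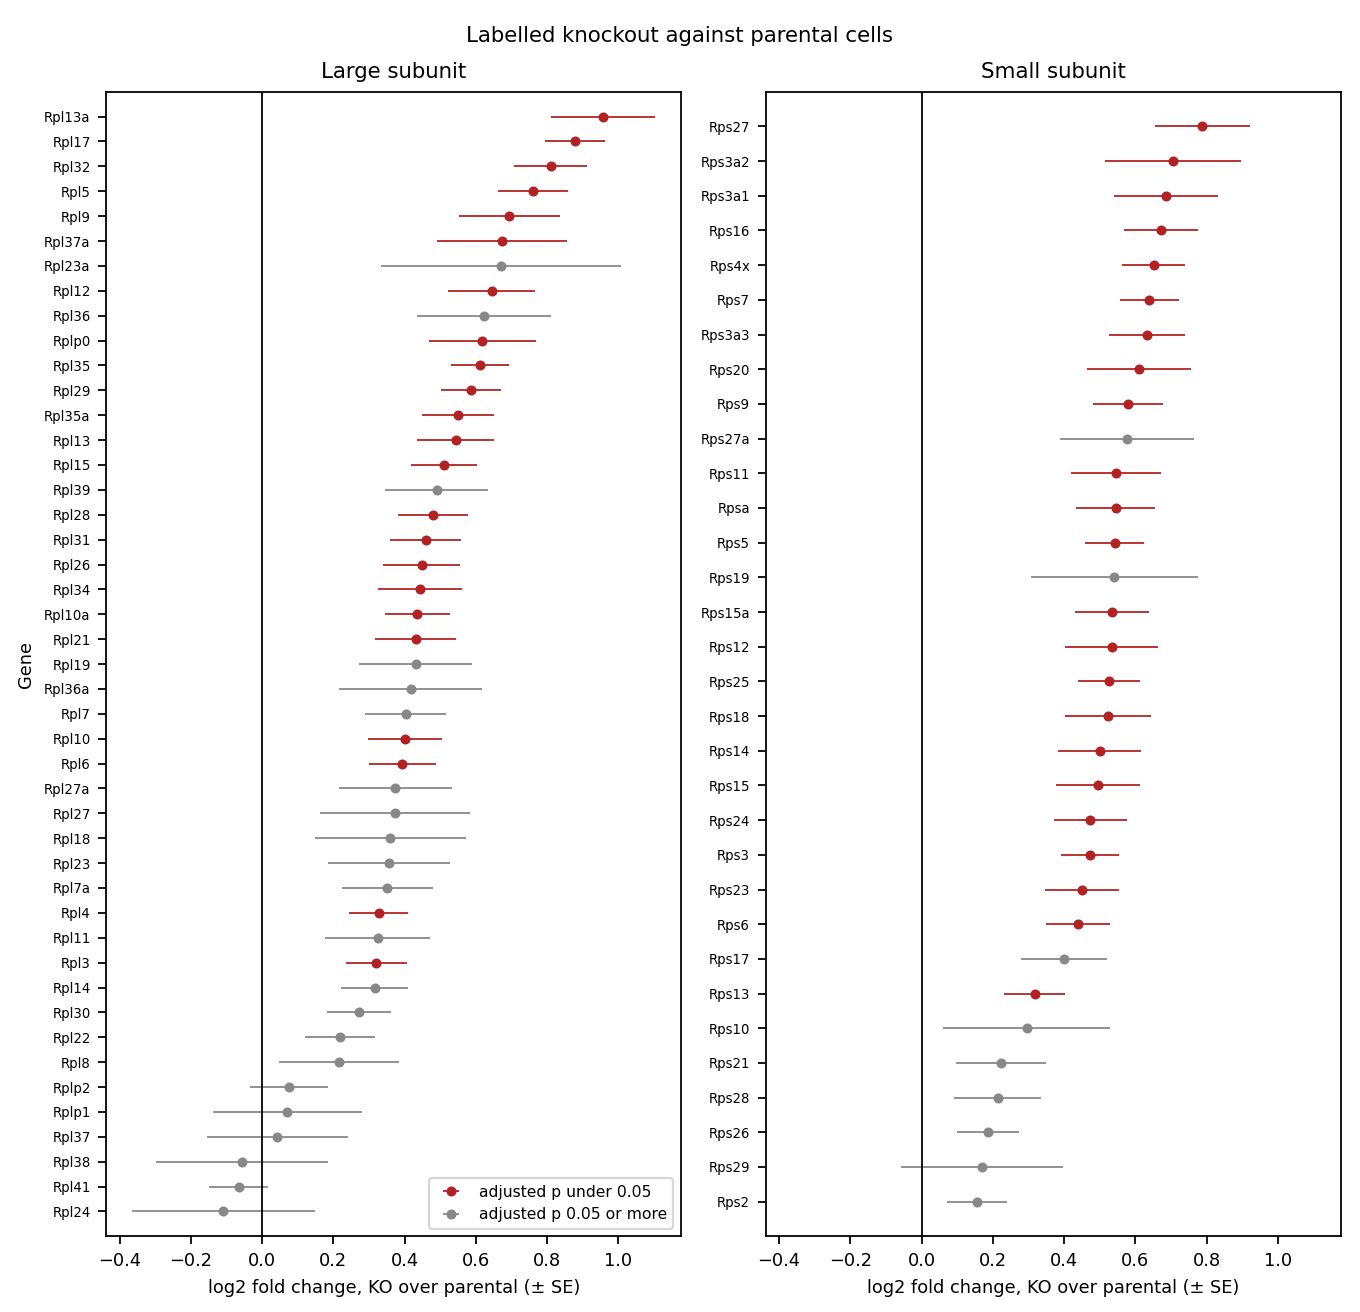
Log2 fold change of the labelled knockout clones over parental cells for each gene, with bars of 1 SE, by subunit, in red where the adjusted p was under 0.05 and grey otherwise. All the small subunit genes shown lie right of 0, and 3 large subunit genes, Rpl41, Rpl38 and Rpl24, lie left of it.

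Among the proteins of the stalk, to which translation factors bind, the base rose and the tip did not pass the test. Rplp0, which anchors the stalk, had 1123 and 1142 CPM in KO clone 1, 820.2 and 869 CPM in KO clone 2, and 646 and 669 CPM in parental cells, with a log2 fold change of 0.62 ± 0.15 SE, adjusted p = 0.0358. Rpl12, its neighbour on the subunit, had 236 and 275 CPM in KO clone 1, 299.8 and 321 CPM in KO clone 2, and 185 and 185 CPM in parental cells, and rose by 0.64 ± 0.12 SE, adjusted p = 0.0172. The acidic proteins Rplp1 and Rplp2 form the mobile tip. Rplp1 had 54.2 and 65.2 CPM in KO clone 1, 79.0 and 104 CPM in KO clone 2, and 72.7 and 74.5 CPM in parental cells, where KO clone 1 lay below and KO clone 2 above the parental values, and the difference was 0.07 ± 0.21 SE, adjusted p = 0.834. Rplp2 had 64.2 and 80.0 CPM in KO clone 1, 76.9 and 89.8 CPM in KO clone 2, and 77.6 and 73.2 CPM in parental cells, with overlapping groups and 0.08 ± 0.11 SE, adjusted p = 0.649. The difference between the base and the tip was not tested. Coding sequences are 951 bases long in Rplp0 and 495 in Rpl12, and shorter in Rplp1 and Rplp2, with 342 and 345. The part of this length in the difference was not tested.

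Rpl5, Rpl11 and Rpl23 are among the proteins that bind the p53 regulator Mdm2 when ribosome assembly is disturbed, and of these 3 listed genes only Rpl5 passed. Rpl11 had 72.1 and 95.5 CPM in KO clone 1, 100.1 and 113 CPM in KO clone 2, and 82.6 and 72.9 CPM in parental cells, overlapping between the groups, with 0.32 ± 0.15 SE, adjusted p = 0.168. Rpl23 had 150.0 and 177 CPM in KO clone 1, 226 and 224 CPM in KO clone 2, and 162 and 149 CPM in parental cells, high in KO clone 2 alone, with 0.36 ± 0.17 SE, adjusted p = 0.189. At the centre where peptide bonds form, Rpl3 and Rpl10 rose and Rpl8 did not pass. Rpl3 had 512 and 537 CPM in KO clone 1, 492 and 496 CPM in KO clone 2, and 419 and 415 CPM in parental cells, a small difference of 0.32 ± 0.09 SE, adjusted p = 0.0455 with little spread within each group. Rpl10, which joins the subunit late in its assembly, had 469 and 499 CPM in KO clone 1, 416 and 416 CPM in KO clone 2, and 349 and 347 CPM in parental cells, with 0.40 ± 0.10 SE, adjusted p = 0.0414. Rpl8 had 124 and 148 CPM in KO clone 1, 172 and 205 CPM in KO clone 2, and 145 and 140.4 CPM in parental cells, where the values of KO clone 1 reached the parental ones, with 0.22 ± 0.17 SE, adjusted p = 0.394. Of the proteins lining the exit tunnel, Rpl4 rose by 0.33 (adjusted p = 0.0399), from values of 558 to 578 CPM in the clones and 466 and 458 CPM in parental cells. Rpl39, a short protein of the tunnel, had 39.5 and 50.6 CPM in KO clone 1, 56.2 and 54.9 CPM in KO clone 2, and 39.2 and 34.1 CPM in parental cells, with 0.49 ± 0.14 SE, adjusted p = 0.0603.

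Rpl38, needed in mouse embryos for the translation of a set of Hox mRNAs, was divided between the clones. It had 135 and 165 CPM in KO clone 1, 238 and 255 CPM in KO clone 2, and 216 and 206 CPM in parental cells. Both libraries of KO clone 1 were below, and both of KO clone 2 above, the parental libraries, and the joint log2 fold change was -0.06 ± 0.24 SE, adjusted p = 0.887. Rpl22, which binds structured RNA and is not essential to the ribosome itself, had 117 and 153 CPM in KO clone 1, 145 and 142 CPM in KO clone 2, and 129 and 116 CPM in parental cells, overlapping, with 0.22 ± 0.10 SE, adjusted p = 0.166.

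In the small subunit, Rps3 and Rps23 rose, while Rps2 and Rps26 did not pass. Rps3, at the entry of the mRNA channel, had 221 and 257 CPM in KO clone 1, 231 and 255 CPM in KO clone 2, and 177 and 178 CPM in parental cells, with 0.47 ± 0.08 SE, adjusted p = 0.0128. Rps23, beside the decoding centre, had 169 and 206 CPM in KO clone 1, 212 and 212 CPM in KO clone 2, and 154 and 146 CPM in parental cells, with 0.45 ± 0.10 SE, adjusted p = 0.03. Rps2, at the same entry as Rps3, had 610.1 and 602 CPM in KO clone 1, 575 and 624 CPM in KO clone 2, and 542 and 563 CPM in parental cells. Its 4 labelled knockout values were above the parental ones, yet the difference of 0.16 ± 0.08 SE, adjusted p = 0.232 was the smallest of the small subunit. Rps26, at the exit of the channel, had 149 and 172 CPM in KO clone 1, 143 and 151 CPM in KO clone 2, and 139 and 137 CPM in parental cells, likewise without overlap, with 0.19 ± 0.09 SE, adjusted p = 0.18. Rps6, the protein phosphorylated by S6 kinase downstream of mTOR, had 424 and 414 CPM in KO clone 1, 376 and 403 CPM in KO clone 2, and 297 and 313 CPM in parental cells, and rose by 0.44 ± 0.09 SE, adjusted p = 0.0209. Rpsa, also described as a receptor for laminin, had 708 and 739 CPM in KO clone 1, 602 and 613 CPM in KO clone 2, and 458 and 474 CPM in parental cells, with 0.54 ± 0.11 SE, adjusted p = 0.0212. Rps19, the gene most often altered in human Diamond-Blackfan anaemia, had 85.2 and 125 CPM in KO clone 1, 164 and 174 CPM in KO clone 2, and 101 and 92.3 CPM in parental cells. The libraries of KO clone 1 lay on both sides of the parental ones, those of KO clone 2 far above, and the joint difference of 0.54 ± 0.23 SE, adjusted p = 0.155 did not pass. Rps27a, made as a fusion with ubiquitin, had 41.5 and 54.6 CPM in KO clone 1, 70.4 and 67.2 CPM in KO clone 2, and 41.7 and 38.7 CPM in parental cells, with 0.58 ± 0.19 SE, adjusted p = 0.079.

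Of the 31 genes that did not pass, 28 still had a positive log2 fold change, and 15 were called higher in KO clone 2 taken alone. The adjusted p of the called genes reached up to 0.0479, and the lowest outside was 0.0533, for Rpl7. The genes nearest to no difference were in the large subunit. Rpl41, whose product is the shortest of all, had 227 and 239.6 CPM in KO clone 1, 222 and 244 CPM in KO clone 2, and 244 and 254 CPM in parental cells, so that all 4 labelled knockout values were below the parental ones, the highest only just, with -0.07 ± 0.08 SE, adjusted p = 0.602. Rpl37 had 27.5 and 37.2 CPM in KO clone 1, 41.6 and 54.7 CPM in KO clone 2, and 39.5 and 40.4 CPM in parental cells, with KO clone 1 below and KO clone 2 above the parental values, and 0.04 ± 0.20 SE, adjusted p = 0.896.

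As a share of all counts, the 79 genes held 1.90% and 2.10% in KO clone 1, 2.05% and 2.14% in KO clone 2, and 1.52% and 1.49% in parental cells. The means were 2.00% ± 0.138 in KO clone 1, 2.09% ± 0.0615 in KO clone 2 and 1.51% ± 0.0191 in parental cells (SD, n = 2 each). The 4 labelled knockout libraries were all above the parental ones by 0.538 percentage points on average, with a two-sided exact permutation p of 0.0667, the smallest that 4 against 2 libraries can give. Large subunit genes held 1.18% to 1.29% of counts in the clones and 0.936% and 0.92% in parental cells. Small subunit genes held 0.724% to 0.848% in the clones and 0.586% and 0.575% in parental cells, so both subunits took part in the rise of the share. The balance between the subunits differed less. The mean log2 CPM of large minus small subunit genes was -0.041 and -0.092 in KO clone 1, -0.0055 and -0.021 in KO clone 2, and 0.027 and 0.025 in parental cells. The difference in this balance between labelled knockout and parental cells was -0.066, against a spread of 0.022 between libraries of a group, with a two-sided exact permutation p of 0.133. This test of the balance was not planned. Both permutation tests treat the 2 libraries of a clone as independent samples, although they come from the same clone.

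**Figure D3:**
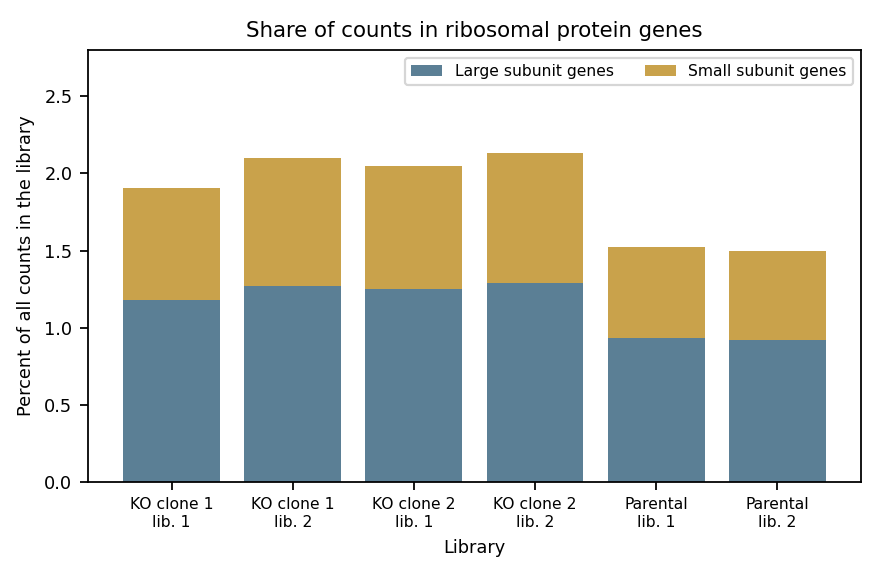
Percent of all counts in a library that fell in the 46 large subunit genes (blue) and the 33 small subunit genes (yellow), as stacked bars from 0. The 4 labelled knockout libraries reach 1.90% to 2.14%, and the 2 parental libraries 1.49% and 1.52%.

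Per length of mRNA the levels of these genes were far from equal, although most of their proteins are needed in equal number. Over all libraries the median was 269 CPM per kb of mRNA, and the quartiles were 177 and 433 CPM per kb. In the large subunit Rplp0 and Rpl10a stood highest, with 647 and 603 CPM per kb. In the small subunit Rps14, Rps2 and Rps3a1 stood highest, with 613, 587 and 494 CPM per kb. At the low end were Rpl24 with 1.39, Rpl13a with 10.1 and Rpl36a with 38.0 CPM per kb, and in the small subunit Rps10 with 3.72, Rps20 with 28.5 and Rps27a with 82.2 CPM per kb. Genes could change places in this order between groups: Rplp0 had 834 CPM per kb in KO clone 1, 622 in KO clone 2 and 484 in parental cells, whereas Rps14 had 619, 732 and 489. The length was that of 1 chosen transcript per gene, 3706 bases for Rps20, so a gene used mostly in a shorter form has a level per kb that is too low.

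For some of the genes with the lowest levels, copies elsewhere in the genome held a large part of the counts. A search of 8120 pseudogene rows of the table found 929 that matched 76 of the 77 protein-coding genes at 90% identity or more. The match had to span at least 50% of the pseudogene row's own length, and Rps3a2 and Rps3a3 were not searched for. These rows held 24.8% to 29.2% as many counts as the 79 genes. For 7 genes the copies held more counts than the gene: Rpl24, Rps10, Rpl29, Rpl23a, Rpl15, Rpl26 and Rps2. For Rpl24, with 0.778 to 1.14 CPM in the 6 libraries, they held 991% as many, and for Rps10 they held 898%. How the counting treated reads that map to several places is not stated in the sources, so the levels of these genes and of Rpl13a, at 81.9%, are uncertain. With the copies added to each gene, an alternative chosen after seeing the data, 46 genes rose and the median was 0.46. The joint log2 fold change of labelled knockout over parental cells moved by more than 0.1 in 4 genes, Rpl24, Rps10, Rpl29 and Rpl13a. Rps10 then passed with 0.42 ± 0.11 SE and an adjusted p of 0.0428, Rpl29 no longer passed at 0.37 and 0.0781, and Rpl13a stood at 0.73 and 0.0131. The difference of KO clone 2 over KO clone 1 moved by 0.57 in Rpl24, 0.30 in Rps10, 0.18 in Rpl29 and -0.38 in Rpl23a. In 7 genes at least 25% of the exon length is also exon of another gene, on either strand. Among them were Rpl35 with 66.2%, Rpl23a with 62.3%, Rpl13a with 35.4% and Rpl5 with 26.7%. Reads there may not be told apart, and how far strand would separate them was not checked.

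Each clone was also set against parental cells with single libraries as samples, in a fit of 3 groups of 2. That fit uses a shared estimate of the spread, although the groups differed in it. Chi-square per gene between a group's 2 libraries was 22.1 in KO clone 1, 4.92 in KO clone 2 and 3.48 in parental cells. The p-values of KO clone 2 against parental cells therefore also depend on the libraries of KO clone 1. In KO clone 1, 49 genes rose and 1 fell, at a median of 0.34, where 27.3% of the 23400 genes tested were called higher and 27.2% lower, or 54.5% in all. Without replicate 2 of KO clone 1, its median was 0.23. In KO clone 2, 61 rose and 0 fell by edgeR, also at an unadjusted p under 0.05, or by DESeq2 or limma-voom, at a median of 0.51, where 26.7% were called higher and 26.8% lower, or 53.5% in all. At 0.5 or more on the log2 scale, KO clone 1 had 18 genes called higher, where 17.1% of all genes were, and KO clone 2 had 38, where 16.8% were. In neither clone was one called lower at that size, where 19.0% of all genes were in KO clone 1 and 18.4% in KO clone 2. These comparisons share the parental libraries, so the counts are given side by side only. In all, 48 genes were called higher in both clones, 13 in KO clone 2 alone, 1 in KO clone 1 alone, and 16 in neither in any direction. The share of all genes called in both clones was not counted, so these joint counts are a description only. The gene called higher only in KO clone 1 was Rps26, with 0.21 ± 0.06 SE, adjusted p = 0.00482 there and 0.09 ± 0.06 SE, adjusted p = 0.208 in KO clone 2, and the gene that fell in KO clone 1 was Rpl38, with -0.49 ± 0.09 SE, adjusted p = 0.00252. Among the 13 were Rpl27, Rpl36, Rpl23 and Rps27a, named above or below, and Rpl39 at the exit tunnel. KO clone 2 lay above parental cells in both libraries for 75 of the 79 genes, where 39.6% of all genes did, and KO clone 1 for 59, where 37.4% did. Both libraries lay below the parental ones for 1 gene in KO clone 2, where 38.0% of all genes did, and for 4 in KO clone 1, where 38.2% did.

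Set against each other, the clones differed in both directions. In KO clone 2 21 genes were higher and 13 lower than in KO clone 1, where 16.1% of all genes tested were called higher and 20.3% lower, or 36.4% in all. Of these, 6 higher and 1 lower differed by at least 0.5 on the log2 scale, against 6.92% and 8.08% of all genes. Both libraries of KO clone 2 lay above both of KO clone 1 for 38 genes, where 32.0% of all genes did, and below for 17, where 34.3% did. The median over the 79 genes was 0.17. Rpl38 was farthest apart among the called genes, with 0.72 ± 0.09 SE, adjusted p = 0.00063. Rps29, a short zinc-binding protein, had 49.8 and 52.2 CPM in KO clone 2, 26.7 and 37.5 CPM in KO clone 1, and 38.5 and 37.2 CPM in parental cells, so that KO clone 2 was above and KO clone 1 around or below parental cells, with 0.67 ± 0.16 SE, adjusted p = 0.0326. Rpl27 had 234 and 249 CPM in KO clone 2, 144 and 171 CPM in KO clone 1, and 152 and 163 CPM in parental cells, where KO clone 1 lay close to parental cells, and the clones differed by 0.62 ± 0.07 SE, adjusted p = 6.35e-05. Rpl36 had 188 and 222 CPM in KO clone 2, 127 and 156 CPM in KO clone 1, and 118 and 112 CPM in parental cells, with 0.54 ± 0.13 SE, adjusted p = 0.0385. In the other direction Rplp0 differed by -0.42 ± 0.04 SE, adjusted p = 1.02e-06, Rps3a1 by -0.41 ± 0.04 SE, adjusted p = 6.85e-07, Rpl9 by -0.39 ± 0.04 SE, adjusted p = 1.41e-06 and the pseudogene Rps3a2 by -0.58 ± 0.05 SE, adjusted p = 9.80e-08. These 4 rose in both clones against parental cells, and more in KO clone 1. Rpl23a had a greater difference of 0.99 that did not pass, at an adjusted p of 0.0856. With its pseudogene copies added, Rpl23a differed by 0.61 ± 0.10 SE, adjusted p = 0.00517.

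The direction of the difference between the clones went with the length of the coding sequence, which is given here as a description. The 21 genes called higher in KO clone 2 had coding sequences of 168 to 798 bases, with a median of 420, and the 11 protein-coding genes called lower had 528 to 951 bases, with a median of 792. Over the 77 protein-coding genes, Pearson's r between the log2 coding length and the log2 difference of KO clone 2 over KO clone 1 was -0.43, and Spearman's rho was -0.50. Against parental cells, r was 0.47 for KO clone 1, 0.02 for KO clone 2 and 0.30 for both clones jointly. The matching values of rho were 0.44, -0.09 and 0.20. Genes are not independent replicates, and the points share the same libraries. The 2 libraries of KO clone 1 differed along the same axis. Library 1 was below library 2 in 71 of the 79 genes, at a median of -0.23, while the median over all genes tested was 0.0037. That difference had an r of 0.47 with log2 coding length. It was -0.30 in the 27 genes of up to 405 bases, -0.24 in the 24 of 408 to 564 bases and -0.10 in the 26 of at least 576 bases. The matching medians for library 1 minus library 2 over all 79 genes were -0.085 in KO clone 2 and 0.047 in parental cells.

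Without the first library of KO clone 1 the median of KO clone 2 over KO clone 1 was 0.062. Without the second library it was 0.29. Against parental cells, the median of KO clone 1 was 0.47 without its first library and 0.23 without its second. The median of KO clone 1 thus depended on the library used, and was positive with either.

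**Figure D4:**
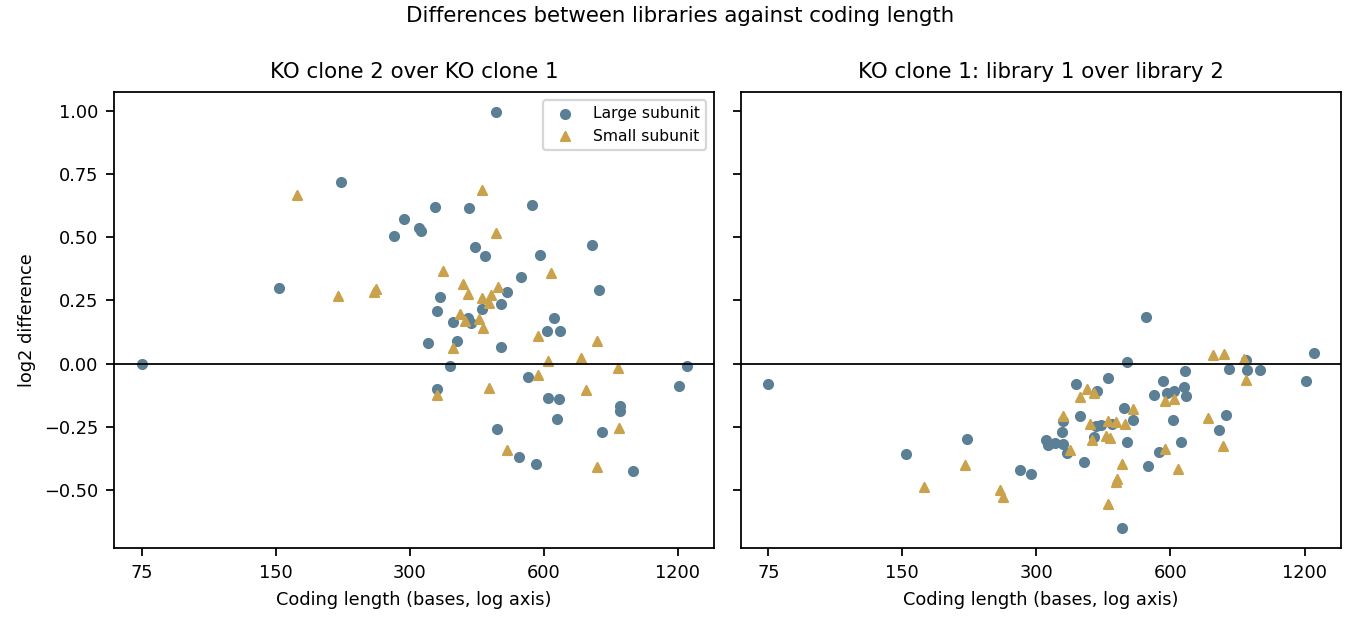
Log2 difference against coding length (log axis) for the 77 protein-coding genes, with KO clone 2 over KO clone 1 at left and library 1 over library 2 of KO clone 1 at right. Genes under 405 bases lie mostly above 0 at left and below 0 at right, and genes near 900 bases lie mostly below 0 at left and near 0 at right.

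Paralogs that can replace a ribosomal protein stood well below their partners. Of 6 tested paralogs and fusion genes, 1 rose: Fau, the source of the small subunit protein Rps30, which had 283 and 294 CPM in KO clone 1, 269.8 and 265 CPM in KO clone 2, and 191 and 191 CPM in parental cells and a log2 fold change of 0.57 ± 0.09 SE, adjusted p = 0.00836. Rps27l, a p53 target in human cells and a paralog of Rps27, had 19.8 and 21.2 CPM in KO clone 1, 39.1 and 37.4 CPM in KO clone 2, and 23.3 and 23.0 CPM in parental cells, again with KO clone 1 below and KO clone 2 above the parental values. It was called lower in KO clone 1, by -0.18 ± 0.06 SE, adjusted p = 0.0308, and higher in KO clone 2, by 0.72 ± 0.06 SE, adjusted p = 5.24e-08. Its counts were 23.5% and 17.5% of those of Rps27 in KO clone 1, 32.1% and 28.7% in KO clone 2, and 32.8% and 35.7% in parental cells. Rpl7l1 stood at 7.64% and 8.04% of Rpl7 in KO clone 1, 8.21% and 9.76% in KO clone 2, and 11.5% and 11.8% in parental cells. Rpl22l1, a paralog of Rpl22, had 9.56 and 10.5 CPM in KO clone 1, 8.87 and 6.52 CPM in KO clone 2, and 9.83 and 7.53 CPM in parental cells, with overlapping groups. Rpl3l, a muscle paralog of Rpl3, stayed between 0.0146 and 0.249 CPM.

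The other genes of the translation machinery did not all move with the ribosomal proteins. Of 6 elongation factors, 3 rose and 1 fell. Eef1a1, which brings aminoacyl-tRNA to the ribosome, had 8087 and 8531 CPM in KO clone 1, 8855 and 9230.2 CPM in KO clone 2, and 4992 and 4934 CPM in parental cells, with 0.84 ± 0.10 SE, adjusted p = 0.00407, and Eef2, which moves it along the mRNA, rose by 0.57 ± 0.12 SE, adjusted p = 0.0216. Eef1d, a subunit of the exchange factor of Eef1a1, fell, with -0.53 ± 0.11 SE, adjusted p = 0.0194. Of 10 other mRNAs with a TOP motif 4 rose, at a median of 0.34. The strongest was Rack1, a scaffold on the head of the small subunit, with 876 and 904 CPM in KO clone 1, 966 and 970.2 CPM in KO clone 2, and 472 and 483 CPM in parental cells and 0.99 ± 0.09 SE, adjusted p = 0.00188. Of 9 host genes of small nucleolar RNAs 5 rose, led by Zfas1 with 18.5 and 21.6 CPM in KO clone 1, 18.8 and 19.4 CPM in KO clone 2, and 6.98 and 7.42 CPM in parental cells and 1.48 ± 0.12 SE, adjusted p = 0.00126. Of 26 initiation factors 7 rose and 1 fell, at a median of -0.04. Eif3f rose by 0.61 ± 0.09 SE, adjusted p = 0.00682, and Eif5b, which joins the subunits, had -0.67 ± 0.08 SE, adjusted p = 0.00482.

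Genes that build ribosomes without being part of them did not share the direction. Of 45 ribosome biogenesis genes 2 rose and 3 fell, at a median log2 fold change of -0.14. Single clones gave 4 rises and 25 falls in KO clone 1, and 3 rises and 22 falls in KO clone 2, in contrasts that called 27.3% of all genes higher and 27.2% lower in KO clone 1, and 26.7% and 26.8% in KO clone 2. Taf1d, a subunit of the RNA polymerase I factor SL1, rose by 0.79 ± 0.15 SE, adjusted p = 0.0179, and Npm1, a nucleolar chaperone, by 0.43 ± 0.10 SE, adjusted p = 0.0299. Nol6 and Rrp1b, which act on ribosomal RNA precursors, stood at -0.43 ± 0.09 SE, adjusted p = 0.0264 and -0.50 ± 0.11 SE, adjusted p = 0.0308. Of 12 chaperones and importins of ribosomal proteins 1 rose and 1 fell. Of 22 genes of Myc, mTOR and Larp1 control 1 rose, the transcription factor Yy1, with 143 and 141 CPM in KO clone 1, 125 and 125 CPM in KO clone 2, and 92.1 and 94.5 CPM in parental cells and 0.55 ± 0.10 SE, adjusted p = 0.0132. Mtor itself had 170.1 and 174 CPM in KO clone 1, 202 and 196 CPM in KO clone 2, and 148 and 151 CPM in parental cells, without overlap between the groups, and a difference of 0.35 ± 0.11 SE, adjusted p = 0.068 that did not pass. The lists were not tested against each other.

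**Figure D5:**
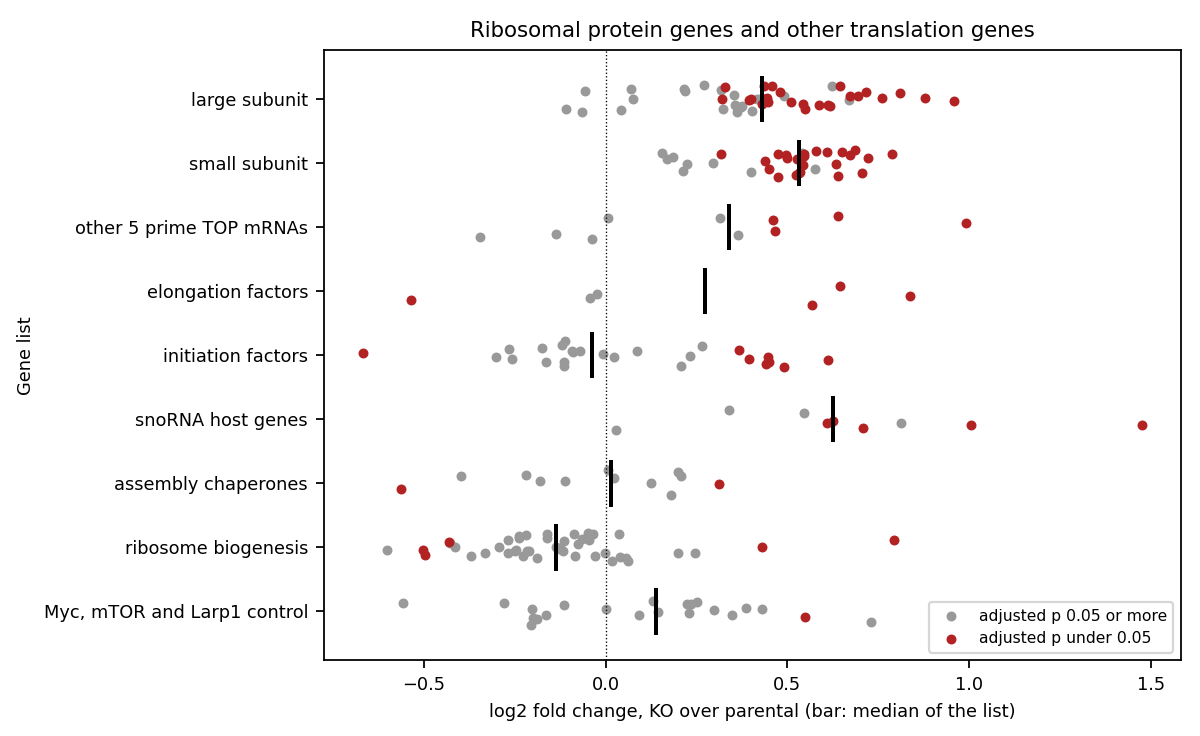
Log2 fold change of the labelled knockout clones over parental cells for the large and small subunit genes and 7 other lists of translation genes, each point a gene, in red where the adjusted p was under 0.05, with a bar at the median of the list. The medians are 0.43 and 0.53 for the ribosomal protein genes, 0.63 for host genes of small nucleolar RNAs and -0.14 for ribosome biogenesis.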

How the data were processed

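The deposited file held raw counts per gene for 6 libraries. The submitters' processing notes name STAR, featureCounts, GRCm38.p6 and mm10, without versions, and give no settings for strand or for reads that map to several places. Columns were matched to samples by name. Gene models came from GENCODE M21, which held all 79 genes. The counts went into edgeR 4.0.16 (R 4.3.3): filterByExpr (minimum count of 10), TMM scaling and the robust quasi-likelihood test over all genes, at a Benjamini-Hochberg adjusted p under 0.05. Each clone's 2 libraries were added for the contrast of labelled knockout with parental cells, and contrasts of single clones used 1 fit of 6 libraries. A log2 fold change has its SE after ±, the size divided by the square root of F. CPM use the TMM-scaled library size. Pseudogene copies were found with blastn. The tests were tried on simulated data. Reads are not independent molecules, so precision was judged between libraries, or between clones where their libraries were added.

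Alternatives were DESeq2 1.42.0 with its size factors, limma-voom (limma 3.58.1), upper quartile scaling, totals, other filters, a minimum effect, pseudogene rows added, a replicate block, and leaving out each library. Named genes were the 6 strongest calls per subunit, the 4 strongest calls each way between clones, the 3 highest and lowest levels per kb, genes of set roles, and up to 4 genes of each other list by adjusted p. Rpl37, Rpl41, Rpl7, Rps3a3, Rpl23a and the genes named for copies or overlap were picked with their values seen. Members and lists were chosen with earlier results of these data known. The level of the targeted gene and a few genes that the rule names are not reported here, and the plots by gene leave those genes out. Replicate numbers were not taken to pair the libraries.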

Additional observations from a re-analysis of the deposited data

Results flagged for a closer look

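The clones differed from each other in 34 of the 79 genes by edgeR's quasi-likelihood test with Benjamini-Hochberg adjustment, which tests the difference between the clones itself. At that threshold 36.4% of all genes tested differed between the clones. Rpl38 was higher in KO clone 2 by 0.72 on the log2 scale, with 238 and 255 CPM in KO clone 2, 135 and 165 CPM in KO clone 1, and 216 and 206 CPM in parental cells. Rps29 was higher by 0.67, Rpl27 by 0.62 and Rpl36 by 0.54. In the other direction, the log2 value of KO clone 2 over KO clone 1 was -0.58 for Rps3a2, -0.42 for Rplp0, -0.41 for Rps3a1 and -0.39 for Rpl9. In each of these 8 genes, picked for this difference, both libraries of one clone lay beyond both of the other. Among all genes tested, both libraries of KO clone 2 lay above both of KO clone 1 in 32.0% and below in 34.3%. The coding length of the 79 genes and the first library of KO clone 1 move with the differences between the clones, and their part in them was not tested.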

How the results depend on the processing

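Between labelled knockout and parental cells, the count of 48 calls stayed within 1.5 times under 10 other settings, from 32 (mean of at least 5 CPM) to 63 (libraries as replicates with a replicate block), all but 1 of the calls higher. Requiring 0.5 on the log2 scale left 31 calls, 18 for KO clone 1, 38 for KO clone 2 and 7 between the clones. Leaving out 1 library gave 1 to 56 calls for both clones against parental cells, 41 to 66 for KO clone 1, 55 to 72 for KO clone 2 and 25 to 57 between the clones. The lowest counts for both clones against parental cells came without parental replicate 1 or 2. That leaves 1 parental library, assumed to vary like the clones. The 79 genes were then called less often than all genes tested. Without KO clone 1 replicate 2, 21 genes were called against parental cells, and the median between the clones was 0.29. With 1 library left out, the difference in share ran from 0.509 to 0.586 percentage points and that in subunit balance from -0.077 to -0.048. Over the other settings the share ran up to 0.636 with copies added and 0.686 with protein-coding genes outside mitochondria as the total, and the balance was -0.046 over members of at least 100 CPM. The replicate block gave 55, 66 and 39 calls in the single-clone contrasts, against 50, 61 and 34 without it. Deviations of same-numbered libraries correlated between -0.015 and 0.019, so the numbers do not pair them.

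In 6 of the 79 genes, none of them called in the reported fit, the sign of the joint log2 fold change differed under some setting. The log2 fold change of Rpl24 was 0.11 with copies added, and -0.29 to 0.11 when 1 library was left out, positive without parental replicate 1. With no filter that of Rpl38 was 0.039 and that of Rpl41 0.030. For Rplp1 it was -0.0045 under upper quartile scaling and -0.0046 with the replicate block, and ran from -0.066 to 0.18 when 1 library was left out, negative without replicate 2 of KO clone 1 (-0.011) or of KO clone 2. For Rplp2 it ran from -0.027 to 0.13, negative without KO clone 1 replicate 2. That of Rpl37 was -0.033 under upper quartile scaling, -0.016 at a mean of at least 5 CPM, -0.017 with libraries as replicates and -0.034 with the replicate block, and its range with 1 library left out was -0.090 to 0.14, negative without replicate 2 of either clone. The cause was not tested. Low counts limit Rpl24, with 48 to 73 counts in a library.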
